A study of Mus musculus with 4 samples.

Results

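Cytochrome P450 genes were taken as all features whose symbol begins with Cyp and has the family form (number, letter, number and at most 1 further letter), together with Cyp51. The rule found 100 of the 32292 features in the deposited matrices, in 40 subfamilies. It used gene names only and no measured value. The data were single-nucleus RNA-seq of livers from male mice that received a diet with DDC, a porphyrinogenic compound, for 4 weeks from 10 to 11 weeks of age. Both groups were on this diet, so every comparison is between injured livers and none is against an untreated liver. The WT group held 2 libraries and the CKO group held 2 libraries with a knockout of Rbpj, the DNA-binding factor of Notch signalling, directed at hepatic progenitor cells. The labels do not name the Cre driver or the deleted exons, and they do not say whether the 2 libraries of a group came from separate animals. P-values therefore measure only the spread between these libraries, which may be technical.

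P450 enzymes are heme proteins, most of them anchored in the endoplasmic reticulum, that insert an oxygen atom into lipids, sterols, hormones and foreign chemicals with electrons passed on by the reductase Por. In the liver, the xenobiotic subfamilies respond to the receptors Nr1i3 (CAR), Nr1i2 (PXR) and Ahr, the Cyp4a enzymes to Ppara, and the bile acid enzymes to Nr1h4 (FXR) and its target Nr0b2. Several mouse P450 genes differ between the sexes through the rhythm of growth hormone, and many are arranged along the lobule, where pericentral hepatocytes carry most drug metabolism. DDC is known to destroy the heme of P450 enzymes and to cause porphyrin plugs and a ductular reaction.

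Of the 100 members, 51 were placed in xenobiotic subfamilies, 29 in fatty acid and eicosanoid subfamilies, 7 among the cholesterol, oxysterol and bile acid enzymes, 6 among the steroid hormone enzymes, 3 among the retinoid enzymes and 3 among the vitamin D enzymes. Cyp20a1 is an orphan. In hepatocyte nuclei 88 members had at least 1 UMI (a unique molecular identifier, 1 counted transcript), and 31 of the 100 had fewer than 10 over all 4 libraries. No UMI was found for Cyp2j7, Cyp2j12, Cyp4a29, Cyp24a1, Cyp3a16, Cyp3a41a, Cyp2w1, Cyp4a30b, Cyp11b2, Cyp11b1, Cyp4f37 and Cyp4f40. RefSeq promoters (build GRCm38.p6) were matched for 77 members by symbol. Windows of 250 bases before the RefSeq start are shown for 5 of them because these genes carry the library and zone patterns described next. Cyp2b9, Cyp2c55 and Cyp2c38 were high in CKO replicate 1 and low in CKO replicate 2, Cyp8b1 had the opposite order, and Cyp3a25 had nearly equal levels in both. Capitals mark matches, on either strand, to the core of the TATA box or to the nuclear receptor half-site.
Cyp2b9, chr7:26173159-26173408, plus strand: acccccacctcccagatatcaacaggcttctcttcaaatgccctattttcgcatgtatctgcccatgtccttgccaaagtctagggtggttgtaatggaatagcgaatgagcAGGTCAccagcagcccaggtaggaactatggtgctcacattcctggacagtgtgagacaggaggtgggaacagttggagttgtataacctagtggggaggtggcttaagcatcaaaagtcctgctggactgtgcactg
Cyp2c55, chr19:39006769-39007018, plus strand: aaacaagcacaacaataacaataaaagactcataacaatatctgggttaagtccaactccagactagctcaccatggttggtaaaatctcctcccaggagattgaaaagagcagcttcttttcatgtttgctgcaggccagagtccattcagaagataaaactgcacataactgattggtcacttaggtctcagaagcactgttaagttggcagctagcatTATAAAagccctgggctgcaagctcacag
Cyp2c38, chr19:39463076-39463325, minus strand: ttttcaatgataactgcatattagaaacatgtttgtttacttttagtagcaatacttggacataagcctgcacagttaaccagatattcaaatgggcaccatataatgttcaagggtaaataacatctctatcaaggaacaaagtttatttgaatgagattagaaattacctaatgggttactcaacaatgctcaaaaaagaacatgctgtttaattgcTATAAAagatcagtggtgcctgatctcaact
Cyp8b1, chr9:121916306-121916555, minus strand: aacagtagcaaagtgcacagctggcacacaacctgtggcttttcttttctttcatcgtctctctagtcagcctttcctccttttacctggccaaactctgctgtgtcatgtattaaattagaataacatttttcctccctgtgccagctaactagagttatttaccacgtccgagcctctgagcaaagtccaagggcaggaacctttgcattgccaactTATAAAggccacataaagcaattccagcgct
Cyp3a25, chr5:146009619-146009868, minus strand: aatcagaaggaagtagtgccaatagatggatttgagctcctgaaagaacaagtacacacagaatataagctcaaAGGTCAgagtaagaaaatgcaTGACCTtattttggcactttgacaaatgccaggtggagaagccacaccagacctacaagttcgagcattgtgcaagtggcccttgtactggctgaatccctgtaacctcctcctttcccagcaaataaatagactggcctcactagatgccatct

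The core letters TATAAA began 31 bases before the start in Cyp2c38 and Cyp8b1 and 29 bases before it in Cyp2c55. The half-site letters AGGTCA began 138 bases before the start in Cyp2b9, and Cyp3a25 held the half-site at 176 bases and, in reverse, at 155 bases. On either strand of the 250-base windows, TATAAA was found in 28 of 77 P450 promoters (36.4%) and in 13.0% of 27025 promoters of all genes. AGGTCA was found in 22.1% of P450 promoters and in 13.8% of all. The letters TNGCGTG (the core of a xenobiotic response element) were present in 1 P450 promoter (1.30%), against 4.16% of all. TCACNCCAC, a sterol regulatory element, was in none of the 77 windows and in 1.04% of all promoters. The Cyp2b9 window shared 74.4% of its bases with that of Cyp2b10 (not shown), and the Cyp3a25 window shared 95.2% with that of Cyp3a59. The 5 windows printed shared 56.4% to 63.2% with each other. Of the 77 windows, 72 lay within 1000 bases of the annotated start. Those of Cyp2c29 and Cyp2c39 lay 17680 and 163516 bases away and were counted among the matches. All matches describe letters in a window and do not show binding.

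The 4 libraries held 16000, 6480, 16000 and 5184 barcodes (WT replicate 1, WT replicate 2, CKO replicate 1 and CKO replicate 2, the order used throughout) and 12261329 to 45620141 UMIs, and pairs of libraries shared 19 to 114 barcodes. Nuclei were called hepatocyte with at least 3000 UMIs and at most 2 UMIs per 1000 from nonparenchymal markers, a gate that reads no P450 gene. It kept 1177, 615, 632 and 871 nuclei with medians of 5837, 4411, 5413 and 3987 UMIs. RNA outside nuclei, called free RNA, was estimated by taking the lowest 10% of each library's barcodes as its profile. Scaled by the share of mitochondrial UMIs, it amounted to 27.3% to 39.3% of hepatocyte UMIs. These barcodes had medians of 1840, 1480, 1838 and 1562 UMIs, and both replicate 1 libraries hold exactly 16000 barcodes, so the profile may include nuclei. Only 6 of 13 hepatocyte markers were highest in this class; among the others, Alb, Apoa1, Apob, Fga, Fgb and Ttr were higher in other classes. All 12 markers of each other class were highest in their own class. Rbpj in hepatocyte nuclei stood at 58.8, 48.4, 66.0 and 45.8 CPM (UMIs per 1000000 UMIs of that class in the library) and did not separate the groups. In cholangiocyte nuclei, described below, Rbpj stood at 80.8, 66.3, 69.6 and 32.1 CPM, the last from 4 UMIs. CKO replicate 1 lay within the WT range there. A 3' tag need not lie in the deleted part, and the knockout was directed at progenitor cells, so Rbpj checks no label here.

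The CKO libraries stood apart from each other. CKO replicate 1 had 1.55% mitochondrial UMIs in hepatocyte nuclei, against 0.55%, 0.17% and 0.30% in WT replicate 1, WT replicate 2 and CKO replicate 2. Y-linked Uty stood at 253, 190, 214 and 159 CPM and Xist had 3 to 5 UMIs per library, so all 4 libraries read as male. Some genes known to be female-biased in mouse liver were nevertheless high in CKO replicate 1. Cux2, a repressor of male-biased genes, stood at 0.65, 0.32, 238 and 1.02 CPM. The male-biased Mup20 had 4435, 4632, 383 and 5738 CPM. Of 10 male-biased genes listed, 5 were tested. All 5 were below both WT libraries in CKO replicate 1 and above both in CKO replicate 2 (17.4% of all genes tested). Of 10 female-biased genes listed, 3 were tested, and 2 of them, Fmo2 included, had the reverse order (17.5% of all genes tested). Prlr was high in CKO replicate 1 (105, 220, 1370 and 97.8). The part of these differences in the P450 results was not tested, and values by library are given throughout.

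P450 transcripts made up 1.10%, 0.96%, 1.38% and 0.84% of hepatocyte UMIs. The xenobiotic subfamilies took 84.1%, 80.3%, 87.1% and 73.2% of these P450 UMIs. The cholesterol, oxysterol and bile acid enzymes took 8.21%, 11.3%, 6.51% and 15.8%, and the fatty acid and eicosanoid subfamilies 7.27%, 7.83%, 5.91% and 10.5%. CKO replicate 2 had the lowest xenobiotic share and the highest share of both other groups. Per kilobase of gene, the highest mean levels over the 4 libraries were those of Cyp2a5 (67.3 CPM per kilobase), a coumarin hydroxylase, and Cyp3a11 (63.6), the main mouse counterpart of the human CYP3A drug-metabolising enzymes. Cyp2d26 (45.8), Cyp3a25 (45.1), Cyp2e1 (35.8), Cyp2d10 (34.3) and Cyp7a1 (25.3) followed. Each of these neighbours overlapped over the libraries, so their order is not fixed by these data. Division by gene length raises short genes, and whether intronic reads were counted is not given. By CPM without this division, Cyp3a11, Cyp3a25 and Cyp2c29 exceeded Cyp2a5 in each library. Cyp3a25 stood at 1716, 1014, 1581 and 1536 and Cyp2a5 at 741, 578, 751 and 150. In the lowest 10% of barcodes Cyp2a5 stood at 2288, 1610, 2017 and 279, and the part of free RNA in its level was not tested.

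Cyp3a was the largest subfamily by UMIs in 3 of 4 libraries, with 37.9%, 27.1%, 31.7% and 28.7% of P450 UMIs. Cyp2c, which epoxidises arachidonic acid and clears drugs, had 23.6%, 25.1%, 37.3% and 9.71%, so it led in CKO replicate 1 only. Cyp2d had 6.79%, 7.51%, 3.11% and 15.9%, Cyp2e had 2.95%, 2.35%, 2.42% and 8.68%, and Cyp2f had 1.31%, 1.65%, 0.711% and 4.85%. In these 3 subfamilies CKO replicate 2 was the highest library. Cyp2b had 2.22%, 7.61%, 4.10% and 0.159%, and Cyp2a had 8.60%, 8.09%, 6.93% and 4.87%, both lowest in CKO replicate 2. The Cyp2j subfamily was steadier, at 3.60%, 3.86%, 2.59% and 3.84%, and Cyp4a was small, at 0.245%, 0.288%, 0.722% and 1.16%.

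The steroid hormone, retinoid and vitamin D enzymes were rare. Cyp26a1, which degrades retinoic acid, had 43, 33, 27 and 23 UMIs (5.60, 10.7, 6.85 and 5.89 CPM), and Cyp26c1 had 25, 11, 8 and 16. Cyp2r1, the vitamin D hydroxylase of the liver, stood at 16.5, 15.2, 25.9 and 13.3 CPM. Cyp17a1, a steroid hydroxylase and lyase, had 4, 6, 5 and 18 UMIs, and Cyp21a1, the adrenal hydroxylase, had 19, 13, 4 and 18. Cyp11a1, Cyp19a1, Cyp27b1 and Cyp1b1 had 1 to 3 UMIs in all. Cyp46a1, the cholesterol hydroxylase of brain, had 4, 20, 37 and 11 UMIs.

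**Figure D1:**
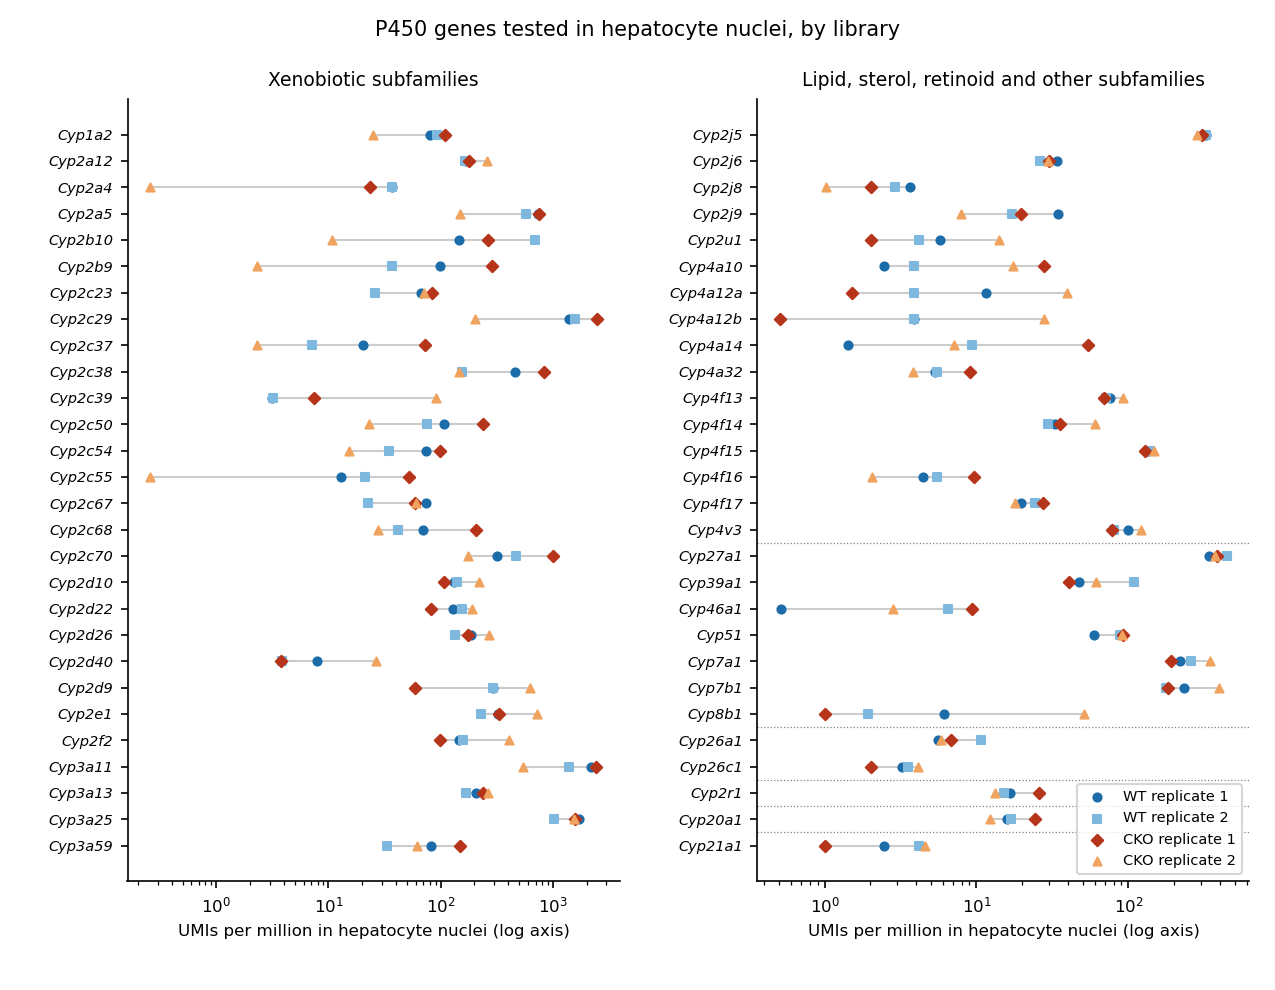
Level of each of the 56 P450 genes tested in hepatocyte nuclei, in CPM on a log axis, with 1 symbol per library and a grey line over their range. Dotted lines in the right panel separate the role groups. Cyp2b9 runs from 2.30 in CKO replicate 2 to 289 in CKO replicate 1, while Cyp2j5 lies between 282 and 326 in all 4 libraries.

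Near-identical copies limit some single values. Over the last 300 bases of their transcripts, 14 of 70 members compared had another member over 90% identical. These pairs include Cyp4a12a and Cyp4a12b (97.0%), Cyp3a25 and Cyp3a59 (94.7%), Cyp2c50 and Cyp2c37 (93.7%), Cyp4a10 and Cyp4a31 (93.3%), and Cyp2c40 with Cyp2c67 and Cyp2c68 (98.0% each). The split of reads within such a pair is uncertain.

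The comparison of CKO with WT asks whether loss of Rbpj in progenitor cells goes with other P450 levels in hepatocytes under DDC. No P450 gene passed the threshold: with edgeR's quasi-likelihood test, 0 of 12718 genes had an adjusted p under 0.05 (0.0%), and the smallest adjusted p was 1.0. At an unadjusted p under 0.05 there were 212 genes, 2 of them members. Of the 56 members tested, 42 had a positive log2 difference, with a median of 0.35 against 0.01 for all genes. It was 35 of 60 (median 0.23) without CKO replicate 2, 33 of 57 (0.26) without CKO replicate 1 and 37 of 56 (0.19) with the replicate number as a block. Positive values were found for 22 of 28 xenobiotic members (median 0.50), 13 of 16 fatty acid members (0.25) and 5 of 7 cholesterol and bile acid members (0.35). The other 44 members fell under the filter on low counts. Without CKO replicate 1, which leaves a lone CKO library assumed to vary as the others do, 3 members passed, among 26 of 13255 genes: Cyp2c39 (5.01), Cyp4a12b (2.99) and Cyp2a4 (−6.88). The Cyp2a4 value rests on 0.256 CPM in CKO replicate 2, from 1 UMI. DESeq2 called 3 genes, among them Cyp4a10 (adjusted p = 0.0174), and edgeR without the filter called 29, among them Cyp4a10 (0.00438) and Cyp2c39 (0.00244).

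Cyp4a10 (chr4:115518264-115533649, coordinates here and below in GRCm38), a fatty acid omega-hydroxylase and a standard target of Ppara, had the smallest p of the members (unadjusted p = 0.00134 with edgeR). It stood at 2.47 and 3.88 CPM in WT and at 27.7 and 17.4 in CKO, so the groups did not overlap. The log2 difference was 2.91 (SE 0.43; 3.31 and 2.13 between libraries of the same number), and it ranged from 2.51 to 3.30 as each library was left out. With each nucleus thinned to 3000 UMIs, the share of nuclei with a Cyp4a10 UMI was 0.85%, 1.14%, 7.59% and 5.28% (0.85% had an exact 95% interval of 0.41% to 1.56%, for counting error only). In cholangiocyte nuclei, which should lack it, the shares were 0.46% of 654, 0% of 32, 4.35% of 184 and 0% of 8 nuclei, where 0 allows up to 9.38% and 37.5%. The barcodes with the fewest UMIs had Cyp4a10 at 4.03, 2.05, 22.0 and 33.9 CPM, so the groups did not overlap there either, and in CKO replicate 2 the level was above that in hepatocyte nuclei. Cyp4a14, another omega-hydroxylase, stood at 1.43, 9.37, 54.6 and 7.17, and CKO replicate 2 lay within the WT range. Cyp4f14, which hydroxylates leukotrienes and vitamin K, had 32.9, 29.7, 35.5 and 60.1 (log2 0.70, SE 0.36), with both CKO libraries above WT. Among the other Ppara targets, 17 of 19 had positive values (median 0.51) and 0 passed the test. In 5 of the 19 both CKO libraries were above both WT, against 12.1% of all genes tested. In 8 CKO replicate 1 was below and CKO replicate 2 above both WT libraries (17.4% of all genes). Acot1, an acyl-CoA thioesterase, stood at 1.95, 0.97, 5.84 and 4.86 (log2 1.86, SE 0.57).

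Among the xenobiotic members, Cyp2e1 (chr7:140763739-140774987), which oxidises ethanol and acetaminophen, stood at 324, 227, 334 and 726 (log2 1.05, SE 0.49). CKO replicate 1 exceeded WT replicate 1 by little, and without CKO replicate 2 the value was 0.27. Cyp3a13 had 208, 168, 237 and 261 (log2 0.48, SE 0.23), with both CKO libraries above WT. Cyp2c39, a retinoic acid hydroxylase, had 3.12, 3.23, 7.36 and 91.1 (log2 4.09, SE 1.32). Its 356 UMIs in CKO replicate 2 set this value, which was 1.21 without that library. Cyp2c23, an arachidonic acid epoxygenase, had 66.1, 25.8, 83.0 and 70.6, Cyp2d26 had 187, 133, 177 and 272, and Cyp3a59 had 81.9, 32.9, 149 and 61.7. Lower means in CKO were given by Cyp2j9 (34.6, 17.1, 19.8 and 7.93) and Cyp2j8 (3.64, 2.91, 2.03 and 1.02), both arachidonic acid epoxygenases, of which only Cyp2j8 had both CKO libraries below WT.

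None of the enzymes of bile acid synthesis passed the test. Cyp7a1 (chr4:6265612-6275633), the rate-limiting enzyme of the classical pathway, stood at 217, 260, 191 and 346 (log2 0.25, SE 0.41). Cyp27a1, the mitochondrial enzyme that opens the acidic pathway, stood at 339, 447, 382 and 374 (SE of the log2 difference 0.28), with both CKO libraries within the WT range. Cyp7b1, the oxysterol hydroxylase, had 233, 178, 182 and 397, and Cyp39a1, which acts on 24-hydroxycholesterol, had 47.0, 109, 40.9 and 60.9. Cyp8b1 (chr9:121914356-121916305), the sterol hydroxylase that makes cholic acid, had 6.12, 1.94, 1.02 and 50.7 (log2 2.75, SE 1.63). Only CKO replicate 2 was high, and the sign turned without it (−2.06). Cyp51, the lanosterol demethylase of cholesterol synthesis, had 59.7, 88.2, 91.6 and 90.3, with WT replicate 2 close to both CKO libraries. The other cholesterol synthesis genes had positive values in 18 of 18 (median 0.60), and 15 had both CKO libraries above both WT, against 12.1% of all genes tested; 0 passed the test. Sc5d, a sterol desaturase, stood at 181, 193, 327 and 333.

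Genes that serve the P450 enzymes gave 0 calls in each list. Of 7 redox partners, 6 had positive values (median 0.23), and Por itself stood at 689, 1047, 764 and 658. Of 25 regulators, 13 were positive (median 0.09). Nr1i2, the receptor PXR, had 426, 362, 256 and 279 (log2 −0.49, SE 0.23) and Ahr had 226, 199, 171 and 68.3 (−0.80, SE 0.42), both with CKO below WT. Of the 25 regulators, 3 had both CKO libraries below both WT and 2 above, against 13.2% and 12.1% of all genes tested. Ppara had 1176, 1281, 957 and 1994. Of 11 genes of heme synthesis and breakdown, 8 were positive (median 0.17). Alas1, the first enzyme of heme synthesis, had 934, 1262, 658 and 699 (log2 −0.64, SE 0.32), with both CKO libraries below WT. Of these 11 genes, 2 had both CKO libraries below both WT and 3 above. Of 10 other genes of bile acid synthesis, 8 were positive (median 0.17), among them Slc27a5 (75.0, 54.6, 93.1 and 115) and Hsd3b7 (52.8, 54.6, 78.2 and 67.6).

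Over the members tested, the median absolute log2 difference was 1.29 between the 2 CKO libraries and 0.45 between the group means. Means of 2 libraries vary less than single libraries, so these 2 values are unlike measures. Of the 56 members tested, 32 (57.1%) had the CKO libraries on opposite sides of both WT libraries, against 34.9% of all genes tested. In 16 members CKO replicate 1 was above and CKO replicate 2 below (17.5% of all genes), and in 16 the order was reversed (17.4%). Groups that did not overlap were found for 9 members, 7 with CKO above and 2 below, against 25.3% of all genes (12.1% and 13.2%). The 2 CKO libraries differed over 4-fold in 21 members (8.0% of all genes) and the 2 WT libraries in 3 (0.849%). Between the WT libraries the median absolute log2 difference was 0.39. Over all genes it was 0.47 between CKO libraries, 0.24 between WT libraries and 0.20 between the group means.

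**Figure D2:**
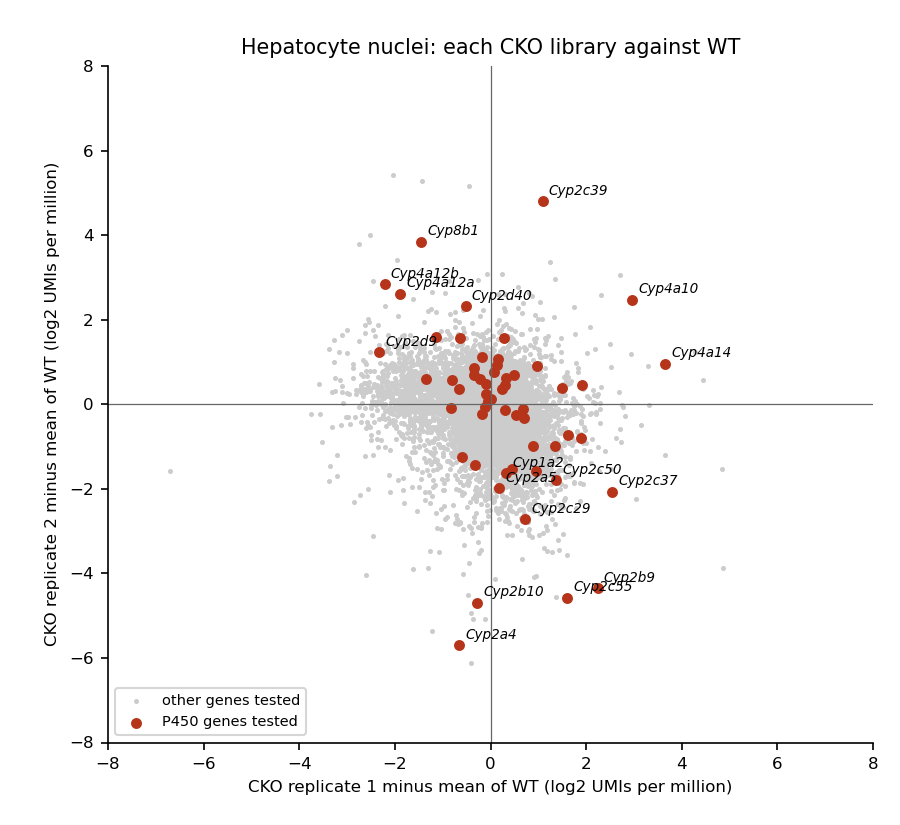
Log2 difference of CKO replicate 1 (x axis) and of CKO replicate 2 (y axis) from the mean of the 2 WT libraries, for each gene tested in hepatocyte nuclei; red points are the 56 P450 genes. Members in the lower right (Cyp2b9, Cyp2c55, Cyp2c37) were high in CKO replicate 1 and low in CKO replicate 2, and those in the upper left (Cyp8b1, Cyp4a12a, Cyp2d9) had the reverse order.

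Xenobiotic members made up 12 of the 16 that were high in CKO replicate 1 and low in CKO replicate 2. Cyp2b9 (chr7:26173411-26210661), a female-biased member near the phenobarbital-inducible Cyp2b10, stood at 98.4, 36.5, 289 and 2.30. Cyp2c55, which makes hydroxyeicosatetraenoic acid, stood at 12.9, 21.3, 52.3 and 0.256, the last from 1 UMI. Cyp2c37 had 20.2, 7.11, 72.8 and 2.30, and Cyp2c29 (chr19:39269405-39330713), the most counted Cyp2c member, had 1387, 1565, 2483 and 202. Cyp2c38 had 462, 155, 837 and 145, and Cyp2c70, which makes muricholic acid, had 316, 465, 995 and 174. Cyp3a11 (chr5:145854426-145879964) stood at 2163, 1395, 2400 and 543 and Cyp1a2, the Ahr target that clears caffeine, at 80.3, 92.7, 110 and 25.1. Cyp2a5 had 741, 578, 751 and 150, so that CKO replicate 1 exceeded WT replicate 1 by little. In each of these genes CKO replicate 2 was the lowest library and CKO replicate 1 the highest.

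Some members were low in CKO replicate 2 without being high in CKO replicate 1. Cyp2b10 (chr7:25897620-25926624), the standard target of Nr1i3, stood at 145, 698, 266 and 10.7, with CKO replicate 1 inside the WT range. WT replicate 2 exceeded WT replicate 1 (log2 of replicate 1 minus replicate 2, −2.40), and the log2 difference between the groups of −1.66 (SE 1.49) was 0.00 without WT replicate 2. A Cyp2b10 UMI was present, after thinning to 3000 UMIs, in 29.4%, 74.5%, 46.2% and 2.87% of hepatocyte nuclei (44.4%, 81.1%, 65.0% and 3.79% unthinned). The thinned shares in cholangiocyte nuclei, which should lack it, were 4.28%, 12.5%, 22.3% and 0%, the last of 8 nuclei, which allows up to 37.5%. Their median depths were 3636, 3447, 3735 and 3222 UMIs, and the 8 nuclei of CKO replicate 2 are too few to compare shares. In that library the barcodes with the fewest UMIs had Cyp2b10 at 3.63 CPM, against 10.7 in hepatocyte nuclei. Cyp2a4, the female-biased steroid hydroxylase, had 36.7, 36.5, 23.3 and 0.256, the last from 1 UMI.

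The members with the reverse order included genes known to be male-biased. Cyp2d9, a testosterone hydroxylase, stood at 290, 292, 58.6 and 619. Cyp4a12a and Cyp4a12b, male-biased arachidonic acid hydroxylases, stood at 11.6, 3.88, 1.52 and 39.4 and at 3.90, 3.88, 0.508 and 27.6. Cyp2f2, which oxidises naphthalene, had 144, 159, 98.0 and 406, and Cyp2u1, a fatty acid hydroxylase, had 5.73, 4.20, 2.03 and 14.1. Among sterol enzymes, Cyp8b1 and Cyp7a1 followed this order with the values given above, and the thinned share of nuclei with a Cyp8b1 UMI was 2.04%, 0.65%, 0.16% and 13.9%. In cholangiocyte nuclei it was 1.83%, 3.13%, 0% and 12.5%, of 654, 32, 184 and 8 nuclei (0 of 184 allows up to 1.63%), so these shares cannot be told from free RNA. The order of the libraries was also present in the barcodes with the fewest UMIs, where Cyp8b1 stood at 13.8, 3.07, 2.33 and 81.1 and Cyp2b10 at 42.9, 177, 130 and 3.63.

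Gene neighbours did not always share an order. Cyp2c38 and Cyp2c39 lie 47.8 kb apart on chromosome 19, yet CKO replicate 1 exceeded CKO replicate 2 by 2.36 on the log2 scale in Cyp2c38 and the difference was −3.72 in Cyp2c39. On chromosome 4, Cyp4a12b differed by −5.06 and Cyp4a14 by 2.70. On chromosome 7, Cyp2b9 (6.58) and Cyp2a4 (5.04), 96.5 kb apart, had the same sign. The Cyp2a4 value rests on 1 UMI in CKO replicate 2, and the Cyp4a12b value on 0.508 CPM in CKO replicate 1. Among the other targets of CAR, PXR or Ahr, 9 of 16 had CKO replicate 1 above and CKO replicate 2 below both WT libraries (17.5% of all genes). Sult1e1, the estrogen sulfotransferase, had 2.08, 2.91, 84.3 and 0.512, and Gstm3 had 202, 473, 711 and 24.8. Nr1i3 had 342, 313, 334 and 133.

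Along the lobule, P450 genes differed more consistently. Each library's hepatocyte nuclei were ranked by a score from 14 pericentral and 15 periportal genes, none of them a P450 gene, and split into 3 equal parts, and the most pericentral part was compared with the most periportal part within libraries. Of 52 members tested, 25 passed an adjusted p under 0.05 with edgeR, 16 higher pericentrally (2.77% of all genes) and 9 higher periportally (2.68%); 5.45% of the 10663 genes were called. By role, 11 of 28 xenobiotic members were higher pericentrally and 6 periportally, as were 2 and 2 of 14 fatty acid members and 3 and 1 of 7 sterol enzymes. The count was 17 without WT replicate 1 and 21 or 22 without any other library, and 15 with nuclei down to 2000 UMIs.

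Of the members called, Cyp2c38 (chr19:39389556-39463075) had the largest pericentral difference. It stood at 862, 303, 1268 and 253 CPM in pericentral nuclei and at 174, 50.6, 323 and 45.1 in periportal nuclei (log2 2.22, SE 0.10, adjusted p = 9.7e-16 with edgeR, higher in 4 of 4 libraries). The ratio between the zones was 4.95, 5.99, 3.92 and 5.60 in the 4 libraries, although CKO replicate 1 and CKO replicate 2 had overall levels of 837 and 145. Cyp7a1 stood at 321, 356, 261 and 465 against 149, 172, 106 and 219 (log2 1.10, SE 0.08, adjusted p = 6.4e-11, 4 of 4). Cyp2e1, a textbook pericentral gene, stood at 462, 306, 421 and 976 against 232, 171, 247 and 492 (log2 0.88, SE 0.08, 4 of 4). Cyp2c39 was higher pericentrally by a log2 of 2.09 (SE 0.23) and stood at 164 against 33.6 in CKO replicate 2, without which it fell under the filter. Cyp2c29 (0.79), Cyp4a14 (2.01), Cyp4a10 (1.15), Cyp27a1 (0.53) and Cyp7b1 (0.51) were also higher pericentrally. Cyp3a25 (0.27) and Cyp3a59 (0.58) were too, each in 4 of 4 libraries.

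Cyp2f2 (chr7:27119909-27133660), a textbook periportal gene, stood at 82.2, 101, 61.5 and 284 pericentrally and at 231, 254, 154 and 581 periportally (log2 −1.30, SE 0.09, adjusted p = 1.8e-11, lower pericentrally in 4 of 4 libraries). Cyp2j5, an epoxygenase, was higher periportally by less (log2 −0.46, SE 0.08), as were Cyp2a12 (−0.53), Cyp39a1 (−0.65), Cyp2j9 (−0.73) and Cyp3a13 (−0.42). Cyp2b10 was called periportal (−0.51, SE 0.10) at 115, 609, 184 and 11.8 against 171, 748, 302 and 8.21, so CKO replicate 2 did not follow. With nuclei down to 2000 UMIs, Cyp2b10 (−0.36), Cyp2j5 (−0.38) and Cyp3a13 (−0.28) no longer passed. Cyp1a2 was higher pericentrally in 4 of 4 libraries but missed the threshold (0.41, adjusted p = 0.10). Cyp3a11 (0.18), Cyp8b1 (−0.04) and Cyp51 (0.12) were not called either. Mitochondrial UMIs were 0.55%, 0.17%, 1.31% and 0.28% in pericentral nuclei and 0.57%, 0.17%, 1.89% and 0.33% in periportal nuclei. Hepatocyte markers stood at 23.0, 21.7, 24.2 and 24.6 UMIs per 1000 pericentrally. They stood at 24.7, 24.1, 30.6 and 28.4 periportally, higher in each library. The periportal score itself holds 3 of these markers, Alb and Cps1 among them, and the part of either measure in the zone values was not tested.

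**Figure D3:**
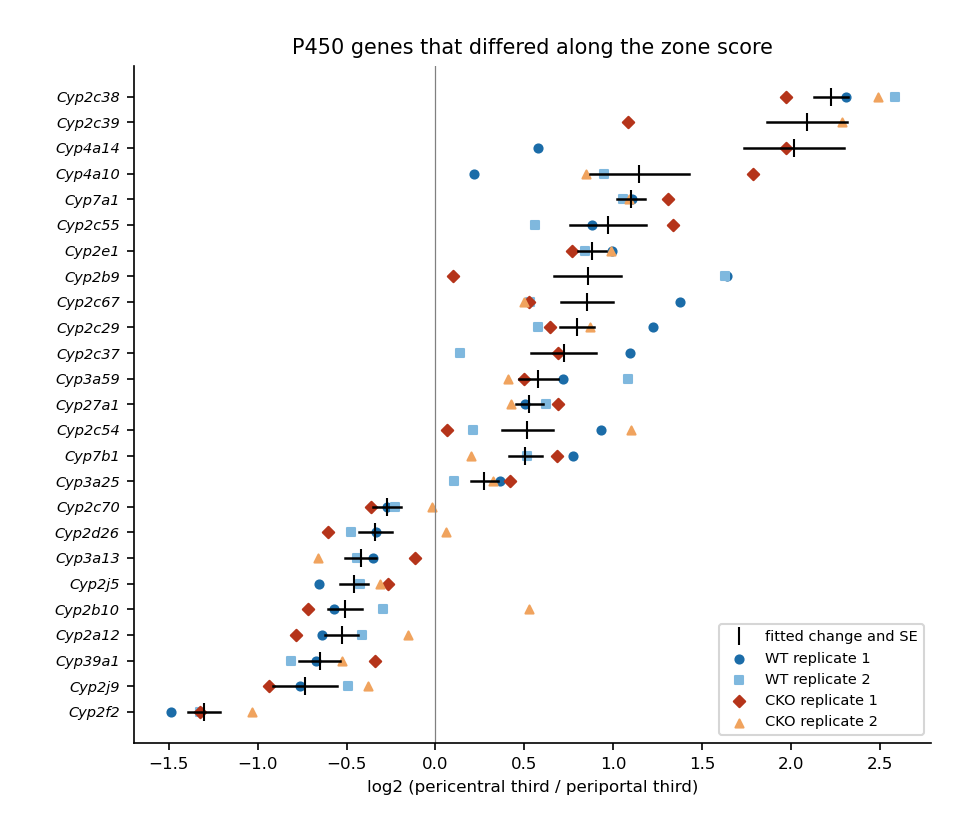
Log2 ratio of pericentral to periportal hepatocyte nuclei (x axis) for the 25 P450 genes called; the tick and line are the fitted change and its SE, and symbols are single libraries with over 3 UMIs in both parts. Cyp2c38 lies near 2.22 and Cyp2f2 near −1.30 with all 4 libraries on the same side, whereas Cyp2b9 in CKO replicate 1 lies near 0, apart from both WT libraries.

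Most genes around the P450 enzymes were not called by zone, where 2.77% of all genes were higher pericentrally and 2.68% periportally. Por (log2 0.50) and Cyb5b (0.32) of 7 redox partners were higher pericentrally. Of 26 regulators, 3 were higher pericentrally, among them Nr1i3 (0.66) and Ahr (0.55), and 2 periportally, among them Onecut1 (−0.76). Of 18 cholesterol synthesis genes 5 were higher pericentrally, and of 11 heme genes only Blvrb (0.75).

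In the test of the zone difference between CKO and WT, 1 of the 52 members was called, and 1 CKO library carried it. Cyp2b9 stood at 169, 58.4, 278 and 5.16 pericentrally and at 54.4, 18.9, 260 and 0 periportally. The ratio was 3.12 and 3.09 in the WT libraries and 1.07 in CKO replicate 1, from 394 and 312 UMIs; CKO replicate 2 had 7 and 0 UMIs. The difference of the log2 ratios, CKO minus WT, was −1.53 (SE 0.23, adjusted p = 0.0029 with edgeR), where 5 of 10663 genes passed (0.0469%). This comparison was chosen after the data were seen. Without CKO replicate 1 the value was 4.55 (adjusted p = 0.75) and without WT replicate 1 −1.49 (0.13), so the call compares CKO replicate 1 with WT and does not show a difference between the genotypes.

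Other liver cells were gated by their own markers as cholangiocyte (1431, 340, 529 and 52 nuclei), endothelial (1116, 169, 525 and 123), mesenchymal (357, 88, 210 and 48) and macrophage (485, 46, 451 and 21). Free RNA, scaled here by hepatocyte markers, was estimated at 55.1% to 80.3% of their UMIs. This scale counts all hepatocyte marker UMIs in these nuclei as free RNA. The estimate for their P450 UMIs came to 96.9% (cholangiocyte), 97.3% (endothelial), 91.8% (mesenchymal) and 99.6% (macrophage), with the limit on the profile given above. Against hepatocyte nuclei, 6 of 61 members tested were higher and 32 lower in cholangiocyte nuclei (25.3% and 27.5% of all genes), 11 and 24 of 59 in endothelial (29.3% and 27.3%), 7 and 23 of 55 in mesenchymal (22.6% and 23.2%) and 4 and 23 of 55 in macrophage nuclei (23.8% and 24.3%). Among the higher members, Cyp4f18 was called in cholangiocyte, endothelial and macrophage nuclei, and Cyp20a1 and Cyp4b1 were each called in endothelial and mesenchymal nuclei. Free RNA was then subtracted from these classes and not from hepatocyte nuclei. After this step, 5 calls of a higher level were left, namely Cyp2s1 in cholangiocyte, Cyp4b1 and Cyp26b1 in endothelial, Cyp20a1 in mesenchymal and Cyp4f18 in macrophage nuclei.

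Endothelial nuclei had 2 such members. Cyp4b1, a fatty acid hydroxylase, stood at 86.6, 55.1, 43.1 and 28.2 CPM, from 311 UMIs where free RNA would give 27.0, and was higher than in hepatocyte nuclei by a log2 of 4.96 (SE 0.29, adjusted p = 1.3e-23 with edgeR). Cyp26b1, which clears retinoic acid, stood at 34.8, 98.0, 3.32 and 12.1, from 94, 32, 4 and 3 UMIs (log2 5.54, SE 0.39). In both genes the CKO libraries lay below both WT libraries, an order that 13.2% of all genes tested had in hepatocyte nuclei. The share over all genes was not computed in endothelial nuclei, which were fewer and shallower, so the hepatocyte share may not hold there. Cyp26b1 in CKO replicate 2 rests on 3 UMIs. CKO against WT gave a log2 of −0.77 for Cyp4b1 (SE 0.32, unadjusted p = 0.045) and of −3.38 for Cyp26b1 (SE 0.91, unadjusted p = 0.0066), and the adjusted p was 1.0 for each with edgeR. Cyp26b1 passed without the filter on low counts (adjusted p = 3.3e-05) and without CKO replicate 2 (3.8e-08), and its value ranged from −4.13 to −1.87 as each library was left out. In endothelial nuclei 0 of 8544 genes passed (0.0%), with 262 at an unadjusted p under 0.05.

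Cyp20a1, the orphan member, stood at 105, 66.0, 83.2 and 107 in mesenchymal nuclei and at 16.0, 16.8, 24.1 and 12.3 in hepatocyte nuclei (log2 2.42, SE 0.22, adjusted p = 5.3e-26). Its 182 UMIs compare with 25.3 expected of free RNA. Cyp7b1 also exceeded free RNA in mesenchymal nuclei, with 386 UMIs against 93.2, at 232, 310, 106 and 204 CPM; it was chosen after its values were seen, and it did not differ from hepatocyte nuclei by the test (log2 −0.11, SE 0.16). Cyp4f18, a leukotriene hydroxylase of myeloid cells, stood at 16.3, 28.3, 11.2 and 0 in macrophage nuclei (36 UMIs against 14.8 expected; log2 3.16, SE 0.49). Cyp2s1, an epithelial member, stood at 6.35, 5.41, 5.16 and 0 in cholangiocyte nuclei (41 UMIs against 4.14 expected; log2 3.42, SE 0.59). The zeros come from 21 and 52 nuclei of CKO replicate 2, where 3 counts would be 62.7 and 24.1 CPM, so a level as in the other libraries was not detectable at this depth.

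**Figure D4:**
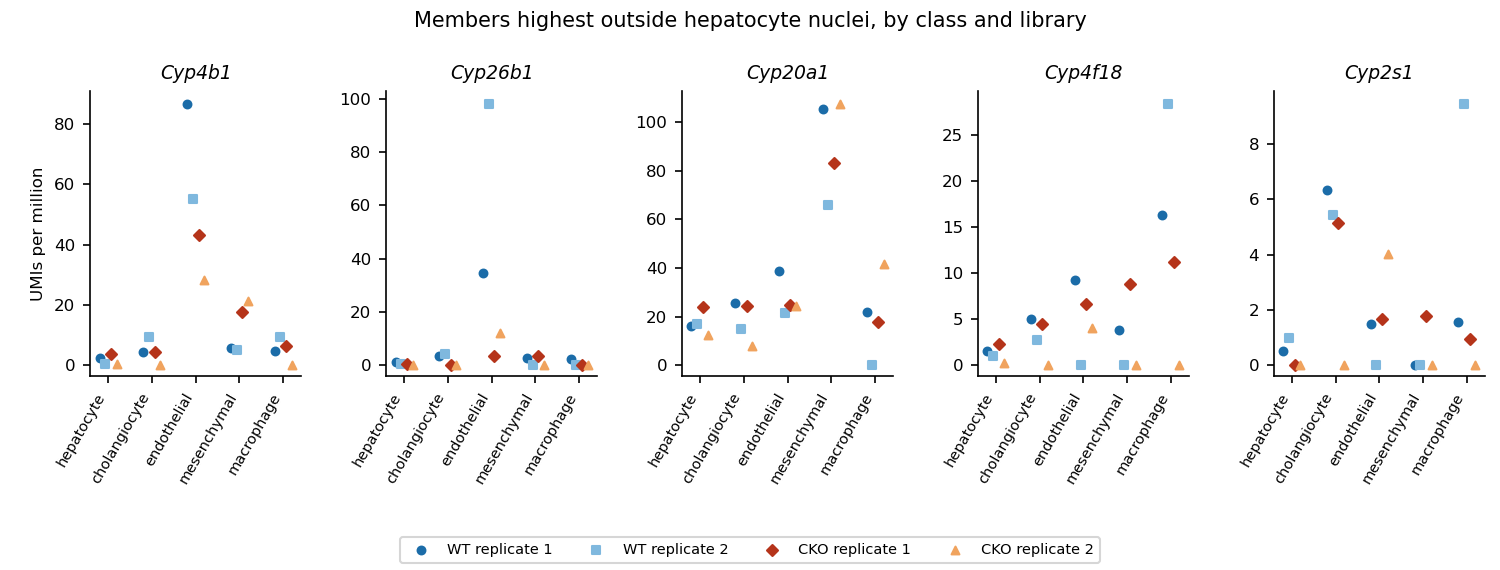
CPM of 5 P450 genes in hepatocyte, cholangiocyte, endothelial, mesenchymal and macrophage nuclei, with 1 symbol per library and a linear axis from 0. Cyp4b1 is highest in endothelial and Cyp20a1 in mesenchymal nuclei in all 4 libraries, and Cyp26b1 in endothelial nuclei in all but CKO replicate 1, which is at 3.32.

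The liver's main P450 genes appeared in these classes at about the level that the free RNA estimate gives. That estimate is scaled to the hepatocyte markers in these classes, so for hepatocyte genes the match is in part fixed in advance. Cyp2a5 was called higher in cholangiocyte nuclei (1219, 938, 1251 and 185 CPM, log2 0.56) and in the other classes, yet its 8227 UMIs in cholangiocyte nuclei compare with 8470 expected of free RNA. The same held for Cyp2a4 (379 against 383) and, in macrophage nuclei, for Cyp1a2 (404 against 409). These calls turned sign with free RNA subtracted. Only the class sums were reduced and not the hepatocyte sums, so a fall of such genes was set by the method. In each of these classes 0 members differed between CKO and WT (42, 40, 32 and 37 tested), and 0.0% of all genes passed in each. At an unadjusted p under 0.05 there were 7, 7, 3 and 3 members. With a lone CKO library, assumed to vary as the others do, edgeR called members in each class. Without CKO replicate 1 it called 2 of 43 members in cholangiocyte (14 of 10111 genes), 15 of 39 in endothelial (333 of 6352), 5 of 30 in mesenchymal (59 of 4636) and 1 of 23 in macrophage nuclei (5 of 2815). Without CKO replicate 2 it called 4 of 48 (66 of 12099 genes), 12 of 48 (197 of 10963), 5 of 40 (130 of 8666) and 4 of 45 (90 of 10602). Without either WT library it called 0 members.

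The barcodes with the fewest UMIs give a view of RNA outside intact nuclei, though they may hold nuclei too. Hepatocyte nuclei differed from them, within libraries, in 45 of 61 members, 17 higher in nuclei (34.1% of all genes) and 28 lower (35.9%); 70.0% of 13149 genes were called. This contrast was added after the data were seen. Cyp2c38 (462, 155, 837 and 145 in nuclei against 82.2, 31.7, 103 and 33.9; log2 2.13, SE 0.17), Cyp2b9 (2.06), Cyp3a25 (1.65), Cyp3a59 (1.40) and Cyp4f15 (1.33) were higher in nuclei. Cyp2a5 was lower in nuclei, at 741, 578, 751 and 150 against 2288, 1610, 2017 and 279 (log2 −1.86, SE 0.14), as were Cyp2a4 (−2.01), Cyp1a2 (−1.63), Cyp51 (−1.46) and Cyp2a12 (−1.37). The members higher in nuclei had a median gene length of 28.7 kb and those lower 20.5 kb. Across the 61 genes, which share the same libraries, the log2 difference and log2 gene length had a Pearson r of 0.34 and a Spearman rho of 0.36, given as a description.

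**Figure D5:**
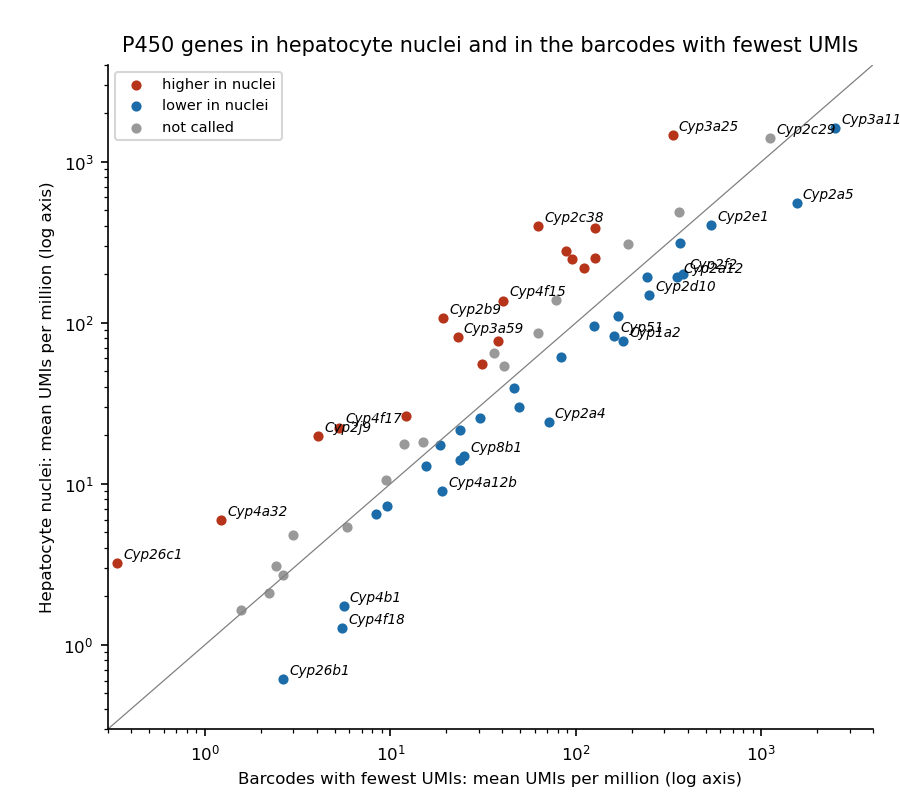
Mean CPM over the 4 libraries in hepatocyte nuclei (y axis) against the barcodes with the fewest UMIs (x axis), both on log axes, for the 61 P450 genes tested; the line marks equal levels. Cyp2c38 and Cyp3a25 lie above it, and Cyp2a5, Cyp2a4 and Cyp1a2 below it.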

How the data were processed

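The deposited files were 10x Genomics single-nucleus matrices of raw counts, 1 count being 1 UMI per gene and barcode, made by the authors with Cell Ranger 5.0.1 on mm10, per the submitters' processing notes. Whether intronic reads were counted is not given in the sources used here. Gene positions were taken from GENCODE vM21. Hepatocyte nuclei needed at least 3000 UMIs and at most 2 marker UMIs per 1000 of other classes; each other class needed at least 5 marker UMIs from at least 3 genes, 3 times the free RNA expectation and 3 times the next class, and at least 20 nuclei per library. T or NK, B, neutrophil, dendritic and mesothelial nuclei were too few and are not described. No doublet caller was run. Nuclei that failed the rule of 3 times the next class stayed unassigned. That rule compared nonparenchymal classes only, so doublets with a hepatocyte could remain in the other classes. Counts were summed per library and tested with edgeR 4.0.16 (R 4.3.3; filterByExpr, TMM factors 0.924 to 1.07, quasi-likelihood test, Benjamini-Hochberg over all genes tested, threshold 0.05), after tests on simulated data; contrasts within libraries had library as a block. DESeq2 1.42.0, other scalings, gates, filters, free RNA subtraction and leaving out each library were alternatives. The 7 added sequences in the feature list, which are no mouse genes, were not tested. Members, lists and rules were chosen with earlier results of these data known. The rule named the members with the smallest p per contrast, the leading member of each subfamily, textbook liver members and the 3 genes with the smallest p per list; further members under the CKO libraries, the printed promoters, Cux2, Fmo2, Por, Ppara, Gstm3 and Nr1i3 were chosen after their values were seen. Totals of 12261329 to 45620141 UMIs per library set the precision, and intervals cover counting error only.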

Additional observations from a re-analysis of the deposited data

Results flagged for a closer look

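Cyp2b9, a female-biased drug-metabolising member, passed the test of a difference between CKO and WT in its pericentral against periportal ratio, which 1 CKO library carried. The log2 ratio in CKO minus that in WT was −1.53 (SE 0.23, adjusted p = 0.0029, edgeR). Both WT libraries had about the same ratio (3.12 and 3.09) and CKO replicate 1 had 1.07, while CKO replicate 2 had 7 pericentral UMIs and 0 periportal UMIs. CKO replicate 1 is also the library with high Cux2 and with 1.55% mitochondrial UMIs, and the part of these in the value was not tested. Without CKO replicate 1 the difference was 4.55 with an adjusted p of 0.75, and without WT replicate 1 it was −1.49 with an adjusted p of 0.13, so a difference between the genotypes is not shown.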

How the results depend on the processing

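In hepatocyte nuclei, CKO against WT gave 0 P450 calls; DESeq2 gave 1 and edgeR without the filter on low counts gave 2. Without the filter there were 3 calls in cholangiocyte and 3 in endothelial nuclei. Over all genes, hepatocyte calls were 0 with the reported design, 3 with DESeq2, 29 without the filter, 26 without CKO replicate 1 and 2 without CKO replicate 2. Nuclei down to 2000 UMIs lowered the zone count from 25 to 15 members and from 581 to 347 genes, and at most 1 marker UMI per 1000 gave 18 members and 393 genes. The cause was not tested. Leaving out each library gave 0 to 3 P450 calls in hepatocyte, 0 to 4 in cholangiocyte, 0 to 15 in endothelial, 0 to 5 in mesenchymal and 0 to 4 in macrophage nuclei for CKO against WT. It gave 17 to 22 for zone, 0 to 1 for zone by genotype, 18 to 28 for macrophage and 30 to 40 for cholangiocyte against hepatocyte. Signs turned as single libraries were left out in Cyp8b1 (−2.06 to 3.79), Cyp2b10 (−5.18 to 0.00071), Cyp2d9 (−2.33 to 1.24), Cyp7a1 (−0.35 to 0.68), Cyp3a11 (−1.55 to 0.43), Cyp20a1 in mesenchymal nuclei (−0.057 to 0.50) and the zone by genotype value of Cyp2b9 (−1.57 to 4.55). Nuclei down to 2000 UMIs turned Cyp3a11 (0.059). Subtracting free RNA turned Cyp2a4 (−4.54 in cholangiocyte, −2.72 in endothelial, −2.50 in mesenchymal and −9.21 in macrophage nuclei), Cyp2a5 (−7.53 in cholangiocyte, −5.98 in mesenchymal and −5.54 in macrophage nuclei) and Cyp1a2 in macrophage nuclei (−4.00). The subtraction lowers by construction what the fewest-UMI barcodes hold, and in these contrasts the hepatocyte sums were left unsubtracted.

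The labels give replicate numbers but no pairing. Between same-numbered libraries the deviations from group means correlated at 0.27 over all genes and at −0.13 over P450 genes. With the replicate number as a block, CKO against WT gave 0 P450 calls in hepatocyte nuclei and 0 in each other class, and Cyp2d9 turned to −0.54. The 2 libraries per group and the 21 to 52 nuclei of CKO replicate 2 in the macrophage, mesenchymal and cholangiocyte classes limit what could be detected.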
